A study of Homo sapiens with 3 samples.

Results

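The genes described here encode the proteins of the mitochondrial ribosome, and their mRNA levels were compared between Caco-2 cells with and without depletion of the transcript OCC-1. Members were all probe sets whose annotation gives a single gene symbol beginning with MRPL or MRPS and a number, which 166 of the 49395 probe sets on the array did. Of these, 98 belong to 47 MRPL genes and 66 to 27 MRPS genes, while the remaining 2 read MRPL20-AS1, an antisense RNA that is not a ribosomal protein and is left out of the counts below. Its brighter probe set had 646, 587 and 643 on the control, shOCC-1-1 and shOCC-1-2 arrays, the order in which values are given throughout.

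Caco-2 is an established human colorectal cancer cell line with enterocyte-like traits. The 3 arrays held total RNA of 1 line carrying the non-target hairpin shCTRL (control, n = 1), 1 line carrying shOCC-1-1 and 1 line carrying shOCC-1-2, which are different hairpins against OCC-1 (knockdown, n = 2). All lines, the control included, had been transduced with lentivirus, kept in medium with 20% fetal bovine serum, put through 5 days of selection in puromycin (1 µg per ml) and left without the drug for 24 hours. The labels do not say whether a line was grown from 1 clone, nor that lines were repeated, and the p-values below therefore reflect no more than how far these few arrays differ, which may be technical.

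Mitochondrial ribosomes translate the few mRNAs of the mitochondrial genome, which encode core subunits of the respiratory chain and the ATP synthase. All of their proteins are encoded in the nucleus, translated in the cytosol and imported, and they assemble with mitochondrial rRNA into a small subunit, which decodes the mRNA, and a large subunit, which forms peptide bonds. Some have counterparts in bacterial ribosomes and others are found only in mitochondria. MRPL and MRPS name large and small subunit proteins, although the proteins of MRPS18A and MRPS30 sit in the large subunit.

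The level of the targeted transcript, read by the C12orf75 probe set, was 1219 in the control, 518 with shOCC-1-1 and 397 with shOCC-1-2. Epithelial markers were present, with KRT18 at 9553 to 10026 and VIL1 at 2447 to 2926. EPCAM rose by log2 differences of 0.51 and 0.59 (limma adjusted p = 0.0090) and CDH1 by 0.41 and 0.36 (adjusted p = 0.021); their part in the members' differences was not tested. KRT20, a marker of differentiated colon cells, was at 182 to 186, close to the median of the arrays. PTPRC, the pan-leukocyte marker, was at 75.5 to 80.1. Other leukocyte markers were brighter: CD68 had 194, 180 and 172, and 1 passed the intensity filter described below, with 199, 215 and 161. Of 6 fibroblast markers 3 passed this filter, at 255 to 260 in the control, and of 4 endothelial markers 1 did, at 213. Medians over all probe sets were 185.5, 182.5 and 183.6. With 3 arrays, precision is limited by their number.

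For 67 of the 74 protein genes a promoter sequence was found in the RefSeq table (GRCh38.p14). Promoters of these genes were searched on both strands, in windows of 250 bases before and 50 after the start of the gene, for 3 short motifs known from genes of mitochondrial proteins. CCGGAAG, the core bound by GABP and other ETS factors, was in 27 of the 67 windows (40.3%) and in 10.6% of all 27305 promoter windows. ANATGGCGG, a YY1 motif, was in 18 (26.9%) and in 2.82% of all. GCGCANGCG, an NRF1 motif whose 2 strands can overlap each other, was in 11 (16.4%) and in 7.79% of all. At least 1 of the 3 was in 45 (67.2%) and in 18.7% of all. The 27305 windows are those of every gene in the RefSeq table, non-coding genes included. No share was taken for protein genes or for genes measured here, so the higher shares are not known to be particular to the members.

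The 100 bases before the start are shown for those of the 9 genes that passed the test described below in which a motif lay within these bases. Capitals mark the motif, which is the GABP core or its reverse complement in each except MRPL17, where it is the NRF1 motif. MRPL33 (chr2:27771619-27771718, plus strand) and MRPS10 (chr6:42217862-42217961, minus strand) are the genes that rose. MRPS34 (chr16:1773135-1773234, minus strand), MRPL43 (chr10:100987498-100987597, minus strand), MRPL54 (chr19:3762582-3762681, plus strand) and MRPL17 (chr11:6683341-6683440, minus strand) fell.
MRPL33: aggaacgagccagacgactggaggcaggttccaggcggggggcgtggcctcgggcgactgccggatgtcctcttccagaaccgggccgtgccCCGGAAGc
MRPS10: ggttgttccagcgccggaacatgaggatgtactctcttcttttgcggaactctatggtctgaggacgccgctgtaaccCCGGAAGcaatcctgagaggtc
MRPS34: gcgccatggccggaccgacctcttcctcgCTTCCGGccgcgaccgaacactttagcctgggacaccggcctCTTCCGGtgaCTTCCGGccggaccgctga
MRPL43: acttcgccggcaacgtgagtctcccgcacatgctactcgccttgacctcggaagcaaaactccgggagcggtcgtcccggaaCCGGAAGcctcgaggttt
MRPL54: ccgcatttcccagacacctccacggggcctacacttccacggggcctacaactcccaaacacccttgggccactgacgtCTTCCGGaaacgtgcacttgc
MRPL17: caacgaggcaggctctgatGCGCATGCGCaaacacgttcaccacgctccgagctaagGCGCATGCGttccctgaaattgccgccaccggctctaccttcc
MRPL33 thus carries the same ETS core before its start as MRPL43, and MRPS34 carries it 3 times within this stretch, so the core was found both in genes that rose and in genes that fell. The shown bases of MRPL12, MRPL55 and MRPS15, which also fell, held no match. MRPS10 also had the YY1 motif in the part of its window that is not shown. The median log2 difference from control was -0.15 over the 27 members with the ETS core and -0.07 over those without it, -0.04 with and -0.15 without the YY1 motif, and -0.07 with and -0.13 without the NRF1 motif. The YY1 and NRF1 medians depend on the letters chosen and had moved when each motif was shortened by 1 base. These medians are descriptions with no test, and a match does not show binding.

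Each gene is represented by the brightest of its probe sets (mean log2 over the 3 arrays), and genes dimmer than the midpoint of the array (intensity 184) were set aside, which left 11329 genes. All 74 protein genes passed, with intensities in the control from 409 to 5040 and a median of 1731. The series counts a gene as OCC-1-regulated when it differs with both hairpins, and this was applied as a difference of at least 1.5-fold the same way on both arrays. By this rule 1 of 74 genes, MRPL33, was higher (1.36% of all genes were) and 0 were lower (0.159% of all genes). The brightest probe sets were those of MRPL11, MRPL51 (4839, 5708 and 5316) and MRPL21 (4188, 4262 and 4089), and the dimmest those of MRPS27, MRPL38 (547, 480 and 443) and MRPL42 (637, 768 and 720). Each hairpin taken alone gave the same counts. With shOCC-1-1 MRPL33 was the 1 higher gene (1.93% of all genes) and 0 were lower (0.212%), and with shOCC-1-2 it was again the 1 higher gene (1.87%), with 0 lower (0.406%). Both hairpins were set against the same control array, so the counts are not independent.

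Most members differed from control by much less. The median log2 difference of the 47 MRPL genes was -0.08 with shOCC-1-1 and -0.11 with shOCC-1-2, and that of the 27 MRPS genes -0.03 and -0.15, beside -0.03 and -0.02 over all 11329 genes. With shOCC-1-1, 29 MRPL and 14 MRPS genes lay below control, which is 58.1% of the members beside 55.0% of all genes. With shOCC-1-2, 35 MRPL and 21 MRPS genes did, which is 75.7% of the members beside 54.2% of all genes. The MRPS median was 0.01 when all probe sets of a gene were averaged, so its direction depends on the choice of probe set, whereas the MRPL median stayed below 0 under every setting tried. A lower level per cell and fewer cells expressing a gene cannot be told apart in these bulk samples.

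**Figure D1:**
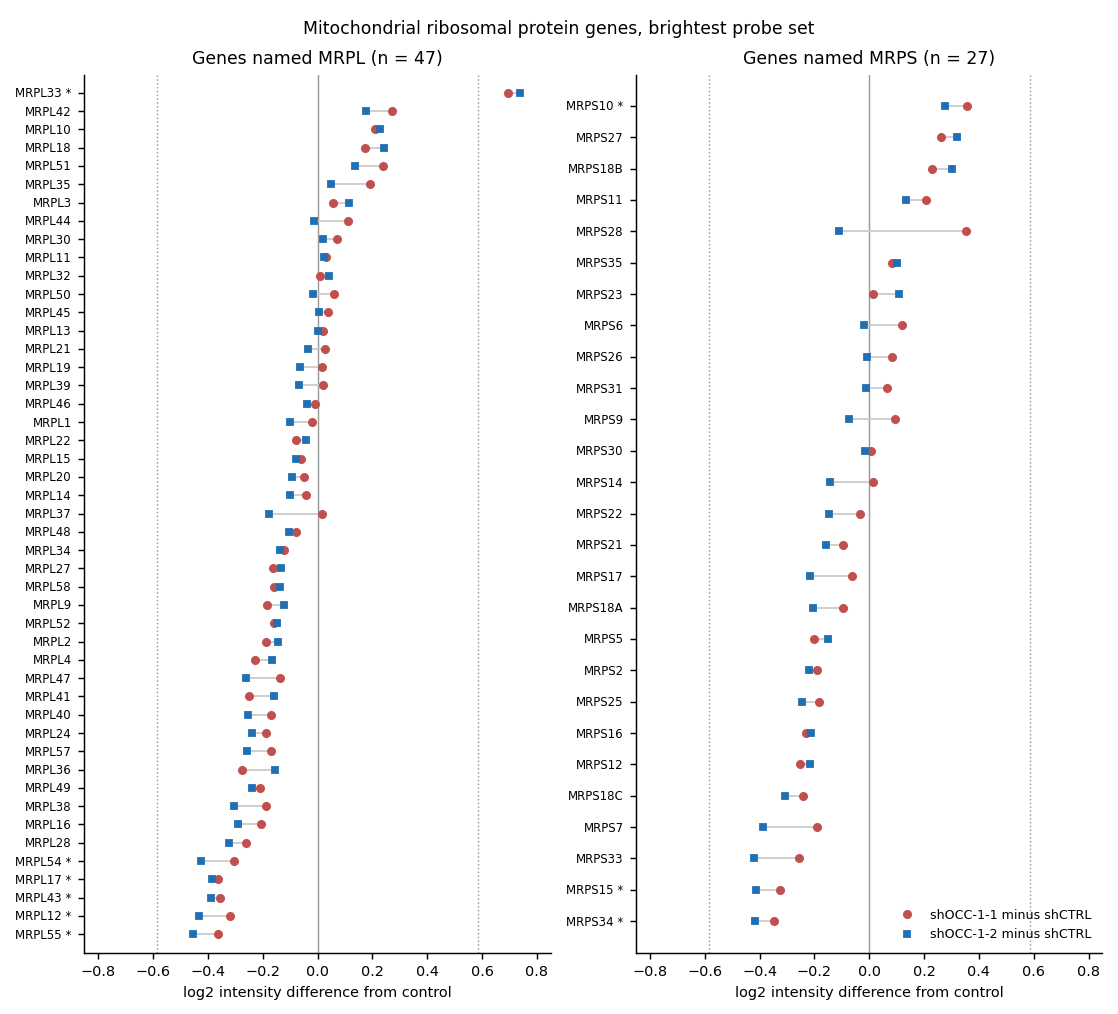
Log2 intensity difference from control (x axis) of each of the 47 MRPL genes (left) and 27 MRPS genes (right), sorted by mean; circles are shOCC-1-1 and squares shOCC-1-2, 1 array each, dotted lines mark 1.5-fold and asterisks a limma adjusted p of at most 0.05. MRPL33 alone lies beyond the dotted lines, and MRPS28 has the longest bar between its 2 arrays.

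In limma, fitted over all 11329 genes with the knockdown arrays as 1 group and with the lone control assumed to vary like them, 2 of the 74 genes rose (2.70%, beside 9.63% of all genes) and 7 fell (9.46%, beside 3.06% of all genes). Members are brighter than most genes. Among the 6610 genes left by a filter at the upper quartile of intensity, 3 members rose and 10 fell. Of these 6610 genes 15.1% rose and 6.13% fell. The arrays' background control probe sets match no transcript and are named by their number of G and C bases, from 3 to 25. Those with 10 or more also lay below control on both arrays, by as much as -0.37 with shOCC-1-1 and -0.23 with shOCC-1-2. Those with 3 to 9 lay above it, by up to 0.06 and 0.04. The part of this shift in the members' differences was not tested.

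MRPL33, a small large-subunit protein with a bacterial counterpart, had an intensity of 1792 in the control, 2902 with shOCC-1-1 and 2991 with shOCC-1-2. Both knockdown arrays were above the control and close to each other, at 1.62-fold and 1.67-fold (limma log2 difference 0.72 ± 0.075 SE, adjusted p = 0.0049). Its brightest probe set has the suffix x, which Affymetrix gives to sets in which some probes may also match other sequences. MRPL33 is not alone in this. Of the 164 probe sets of protein genes 31 have the suffix, among them the brightest of MRPS27 and MRPS18B. The other 2 probe sets of MRPL33 rose less. One went from 1210 in the control to 1424 and 1468, which is 1.18-fold and 1.21-fold, and the other from 843 to 1186 and 1183, which is 1.41-fold and 1.40-fold. All 3 were thus above control on both arrays, and with all of them averaged the gene did not reach 1.5-fold.

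MRPS10, a protein of the small subunit with a bacterial counterpart, was the other gene that rose. Its intensity was 825 in the control, 1055 with shOCC-1-1 and 998 with shOCC-1-2, or 1.28-fold and 1.21-fold (limma log2 difference 0.32 ± 0.078 SE, adjusted p = 0.044). Its 2 other probe sets were above control too, at log2 differences of 0.43 and 0.38 for one and of 0.17 on both arrays for the other.

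The lower genes came from both subunits and had limma log2 differences from -0.36 to -0.41. Members with smaller decreases did not pass, so the threshold sets the smaller end of this range. MRPL55 had the largest decrease, from 1155 in the control to 897 and 843, which is 1.29-fold and 1.37-fold lower (limma log2 difference -0.41 ± 0.079 SE, adjusted p = 0.021). MRPS34, a small subunit protein without a bacterial counterpart, went from 2698 to 2123 and 2022, or 1.27-fold and 1.33-fold lower (adjusted p = 0.024). MRPL12, the factor-binding stalk protein that is the counterpart of bacterial L7/L12, went from 2252 to 1805 and 1671, or 1.25-fold and 1.35-fold lower (adjusted p = 0.030). In each of these genes both knockdown arrays lay below the control and shOCC-1-2 was the lower of the pair.

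The other 4 lower genes had limma log2 differences from -0.36 to -0.37. MRPL43, found only in mitochondrial ribosomes, went from 1937 to 1512 and 1478 (adjusted p = 0.023), and MRPL17, which has a bacterial counterpart, from 2208 to 1718 and 1693 (adjusted p = 0.022). MRPS15, a small subunit protein with a bacterial counterpart, went from 2476 to 1973 and 1861 (adjusted p = 0.027). MRPL54, which lies near the base of the stalk, went from 1023 to 828 and 762 (adjusted p = 0.035). When all probe sets of a gene were averaged, MRPL12, MRPL17, MRPL43 and MRPS15 no longer passed (adjusted p from 0.065 to 0.385), while MRPL33, MRPS10, MRPL54, MRPL55 and MRPS34 did. For MRPL54, MRPL55 and MRPS34 there was no other probe set to average. The averages include dim probe sets: the only other one of MRPS15 was below the intensity filter (118, 113 and 115), and that of MRPL17 was just above it (191, 181 and 184). MRPL43 had 4 other probe sets above the filter, of which 1 lay above control on both arrays (762, 910 and 834). The second probe set of MRPL12 had 943, 936 and 821.

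**Figure D2:**
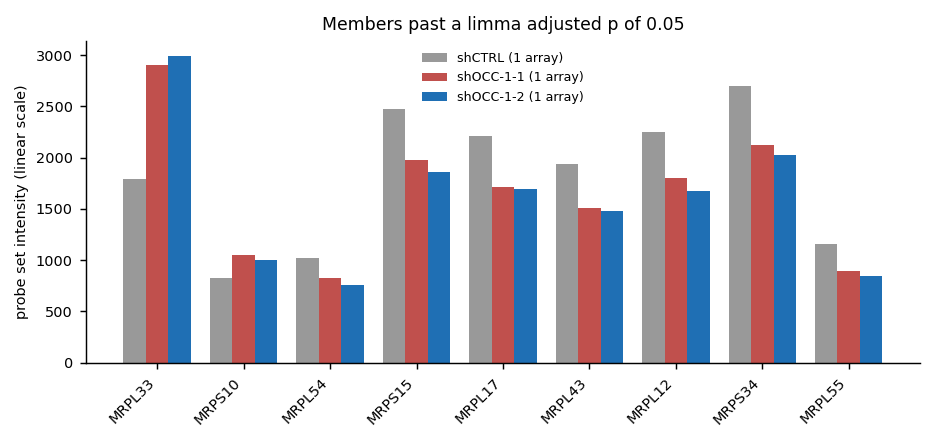
Intensity on a linear scale (y axis) on each array for the 9 members that passed limma, with bars for shCTRL, shOCC-1-1 and shOCC-1-2 (1 array each, so no error bars). MRPL33 rises from 1792 to 2902 and 2991, and in each of the 7 genes from MRPL54 to MRPL55 both knockdown bars are below the control bar.

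The remaining members did not pass. Among MRPS genes the highest of these were MRPS27, a pentatricopeptide repeat protein of the small subunit, with 409, 490 and 511 (limma adjusted p = 0.051), MRPS18B with 1743, 2041 and 2151 (adjusted p = 0.069) and MRPS11 with 839, 969 and 920. Another MRPS11 probe set lay below control on both arrays, with 791, 684 and 689. The second MRPS27 probe set, with 380, 492 and 522, was higher as well (adjusted p = 0.012 over probe sets). Among MRPL genes they were MRPL42, MRPL10, MRPL18 and MRPL51, with mean log2 differences from 0.19 to 0.22. The lowest were MRPS33 with 1789, 1498 and 1338 (adjusted p = 0.055), MRPS7 with 1766, 1546 and 1350, and MRPS18C with 1307, 1107 and 1056. MRPL28, singled out after its values were seen, had 2806, 2340 and 2246 (adjusted p = 0.051). For each gene given here with values of its brightest probe set, both knockdown arrays lay on the same side of the control.

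The parts of the ribosome were next described separately. The stalk and its base recruit translation factors to the large subunit, and its 4 measured genes did not move as 1 group. MRPL10, which anchors the stalk, had 2442 in the control, 2825 with shOCC-1-1 and 2857 with shOCC-1-2, which are log2 differences of 0.21 and 0.23 (limma adjusted p = 0.098). MRPL11, a protein of the stalk base, had 5040, 5153 and 5127 and lay within 0.03 of control. MRPL12 and MRPL54 fell, as given above. Another gene of this group, MRPL53, was read only by probe sets annotated to it and to CCDC142 together, the brighter of which had 1852, 1600 and 1484.

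The 3 genes related to bacterial S18 also went different ways. MRPS18B lay above control by 0.23 and 0.30, and MRPS18C, the member that takes the place of bacterial S18 in the small subunit, below it by -0.24 and -0.31 (limma adjusted p = 0.061). MRPS18A, whose protein is in the large subunit, had 843, 788 and 731, or -0.10 and -0.21. The second probe set of MRPS18B, at 0.10 and 0.16, was on the same side as the first. MRPS18C had 2 further probe sets, 1 at -0.12 and -0.16 and 1 at 0.04 and -0.08.

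Members were also sorted by whether the protein has a bacterial counterpart, which was done for 71 of 74. MRPL55, which fell, MRPS18A and MRPS18B were not sorted and are missing from the counts that follow. The 28 large subunit genes with a counterpart had medians of -0.05 and -0.10, and the 19 without one -0.08 and -0.14. In the small subunit the 15 genes with a counterpart had medians of -0.10 and -0.16, and the 9 without one 0.02 and -0.01. By limma 1 of the 28 rose (3.57%) and 2 fell (7.14%), 2 of the 19 fell (10.5%), 1 of the 15 rose and 1 fell (6.67% each), and 1 of the 9 fell (11.1%). Over all genes 9.63% rose and 3.06% fell, and each count here is of 1 or 2 genes. Counting MRPS18A and MRPS30 with the large subunit left both subunits' medians of the mean difference as they were, at -0.08 and -0.09.

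The knockdown lines were compared directly for each member. The log2 difference between shOCC-1-1 and shOCC-1-2 had a median size of 0.07 over the members, as over all genes. In 53 of 74 genes the shOCC-1-2 array was the lower one (71.6%, beside 52.3% of all genes). MRPS28, the small subunit protein related to bacterial S1, differed most. Its brightest probe set had 903 in the control, 1154 with shOCC-1-1 and 836 with shOCC-1-2, so the hairpins lay on opposite sides of the control and 1.38-fold apart. The second probe set had 407, 415 and 317, and was 1.31-fold apart in the same direction. Next were MRPL37, with 1164, 1179 and 1029, and MRPS7, each 0.20 higher on the log2 scale with shOCC-1-1. With 1 array per hairpin these differences have no replicate check.

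**Figure D3:**
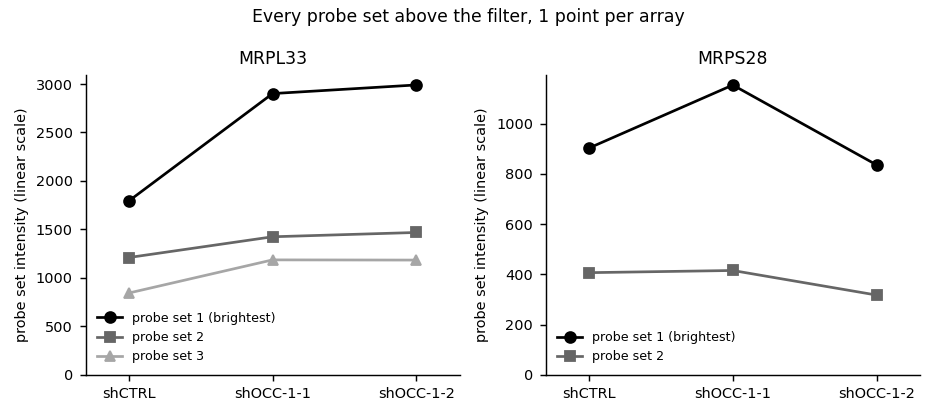
Intensity on a linear scale (y axis) of the 3 MRPL33 probe sets (left) and the 2 MRPS28 probe sets (right) above the filter, 1 point per array. All MRPL33 probe sets are higher on both knockdown arrays, whereas both MRPS28 probe sets are lower with shOCC-1-2 than with shOCC-1-1.

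Where a gene had several probe sets, these often disagreed. Of the 164 probe sets of protein genes 142 passed the intensity filter, and 1 of them, for MRPL45, had the same values as another and was counted once. The 22 dim ones, at 84.6 to 189 in the control, lay between -0.21 and 0.22 of it. Of the 141 distinct probe sets 2 were 1.5-fold higher on both arrays (1.41% of 22670 named probe sets) and 0 lower (0.11%). In limma fitted over these 22670 probe sets, 14 rose (9.93%, beside 11.3% of all) and 12 fell (8.51%, beside 3.92% of all).

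More than 1 distinct probe set was measured for 40 genes. In 8 of these every probe set was above control on both arrays, in 11 every one was below it, and in 14 at least 1 was above and 1 below on both arrays. The range between probe sets of a gene had a median of 0.26 on the log2 scale and reached 0.77. Such counts and ranges were not taken for other genes, so they are not known to be particular to the members. The brightest probe sets of these 40 genes had medians of -0.04 and -0.12. In the fit over probe sets 3 of them rose (7.5%) and 4 fell (10%). The 67 other probe sets had medians of -0.01 and -0.02, and 11 of them rose (16.4%) and 3 fell (4.48%). Over all named probe sets 11.3% rose and 3.92% fell.

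MRPS5, a small subunit protein with a bacterial counterpart, had the widest range. Its brightest probe set had 2032 in the control and 1768 and 1833 in the knockdown lines, while another had 721, 1119 and 1059, or 1.55-fold and 1.47-fold higher (limma adjusted p = 0.003 over probe sets). MRPS25 was alike, with 1110, 978 and 937 for the brightest probe set and 234, 338 and 345 for a dimmer one (adjusted p = 0.004). In both genes the probe sets thus lay on opposite sides of the control.

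MRPL39, a large subunit protein found only in mitochondria, had 933, 945 and 890 for its brightest probe set, which spans the control. Its other probe set had 447, 748 and 712, or 1.68-fold and 1.60-fold higher (limma adjusted p = 0.002), and was the only member probe set beyond MRPL33 to reach 1.5-fold on both arrays. MRPL19 and MRPL4 were singled out after their values were seen. MRPL19 had 2076, 2100 and 1987 by its brightest probe set, which spans the control, and 257, 364 and 374 by the other (adjusted p = 0.004). In MRPL4 a dimmer probe set had 571, 380 and 402, with log2 differences of -0.59 and -0.51 (adjusted p = 0.004), beside 1019, 869 and 909 for the brightest.

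**Figure D4:**
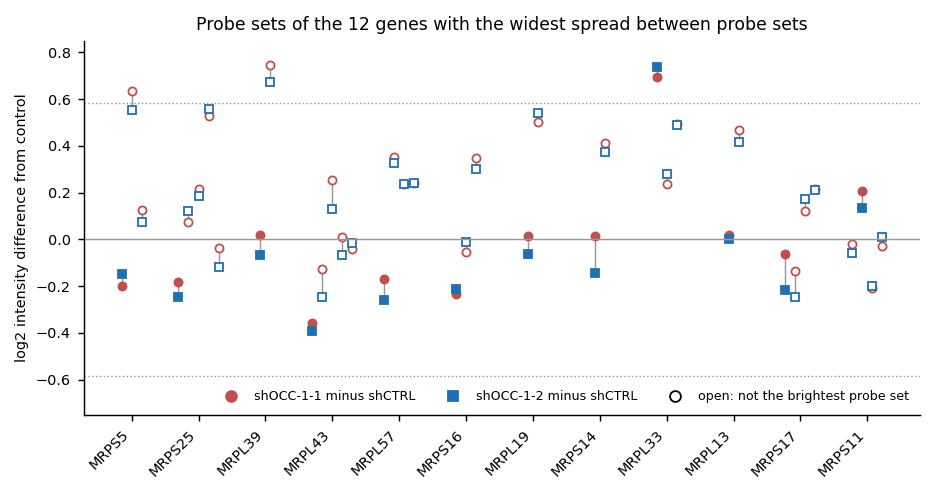
Log2 intensity difference from control (y axis) of every probe set above the filter for the 12 genes with the widest range between probe sets; circles are shOCC-1-1, squares shOCC-1-2, filled symbols the brightest probe set of the gene, and dotted lines 1.5-fold. Open symbols lie above the filled ones for MRPS5, MRPS25, MRPL39 and MRPL19, and below them for MRPL33 and MRPS11.

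Members under other names and genes that act with the mitochondrial ribosome were described from lists. Their counts of limma calls stand beside 9.63% higher and 3.06% lower over all genes, and over the 5 lists together 6 of 73 genes rose (8.22%) and 2 fell (2.74%). Of 5 mitoribosomal genes with other names 4 were measured. GADD45GIP1, which encodes a large subunit protein at the exit of the peptide tunnel, fell from 1811 to 1375 and 1421 (limma adjusted p = 0.024). DAP3, a GTP-binding small subunit protein, had 1864, 2176 and 2356 (adjusted p = 0.071), and PTCD3 and CHCHD1 lay between -0.13 and 0.17 of control. Probe sets annotated to more than 1 gene gave 2385, 2124 and 2076 for MRPL23, whose symbol appears with 2 gene identifiers, and 4267, 3739 and 3525 for MRPS24 together with its read-through transcript.

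Mitoribosome assembly factors had medians of -0.06 and -0.08 over 24 genes, and by limma 1 rose and 1 fell (4.17% each). MTERF3, which acts in assembly of the large subunit, rose from 426 to 570 and 556 (adjusted p = 0.018). METTL17 fell from 1787 to 1488 and 1394 (adjusted p = 0.048), but not with its probe sets averaged (adjusted p = 0.17). METTL15 had 402, 546 and 462 and MPV17L2 had 435, 333 and 374, and neither passed. Of 14 translation factors and related RNA-binding proteins, with medians of 0.05 and 0.01, 2 rose (14.3%). These were MTIF2, the initiation factor that brings the first tRNA, from 969 to 1309 and 1326 (adjusted p = 0.013), and LRPPRC, which stabilises mitochondrial mRNAs, from 1992 to 2837 and 3015 (adjusted p = 0.0092). With probe sets averaged LRPPRC did not pass (adjusted p = 0.11). The lowest of this list were MTFMT, which formylates the initiator tRNA, with 495, 421 and 414, and TUFM, the elongation factor that brings tRNAs to the ribosome, with 3505, 3131 and 2940.

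Of 16 mitochondrial aminoacyl-tRNA synthetases, with medians of 0.02 and 0.03, 1 rose (6.25%). MARS2, which charges the methionine tRNA, went from 359 to 473 and 523 (limma adjusted p = 0.018), and did not pass with its probe sets averaged (adjusted p = 0.13). IARS2 was next highest with 1805, 2090 and 2113, and LARS2 (586, 484 and 502) and SARS2 (359, 323 and 313) were lowest. Among 15 genes of mitochondrial DNA transcription and replication and their nuclear regulators, with medians of 0.04 and 0.01, 2 rose (13.3%). TFAM, which packages mitochondrial DNA and starts its transcription, went from 1457 to 1928 and 1929 (adjusted p = 0.017). GABPA, the DNA-binding subunit of GABP, went from 192 to 273 and 255 (adjusted p = 0.015). Its control value was close to the intensity filter of 184. No result was obtained for GABPA with averaged probe sets or with a filter at the upper quartile. TWNK, the mitochondrial DNA helicase, had 636, 540 and 563, and ESRRA, a nuclear receptor of mitochondrial genes, had 1466, 1200 and 1381.

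Beside these, 77 subunits of oxidative phosphorylation had medians of -0.03 on both arrays, and 70 proteins of the cytosolic ribosome medians of 0.10 and 0.13. Of the cytosolic ribosomal genes 15.7% and 10.0% lay below control with shOCC-1-1 and shOCC-1-2, against 58.1% and 75.7% of the mitochondrial ones. Over all genes 55.0% and 54.2% did. Median intensities in the control were 11460 for the cytosolic genes, 1731 for the mitochondrial ones and 500 over all genes. The difference between the groups was not tested, and all of these values rest on the same control array.

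**Figure D5:**
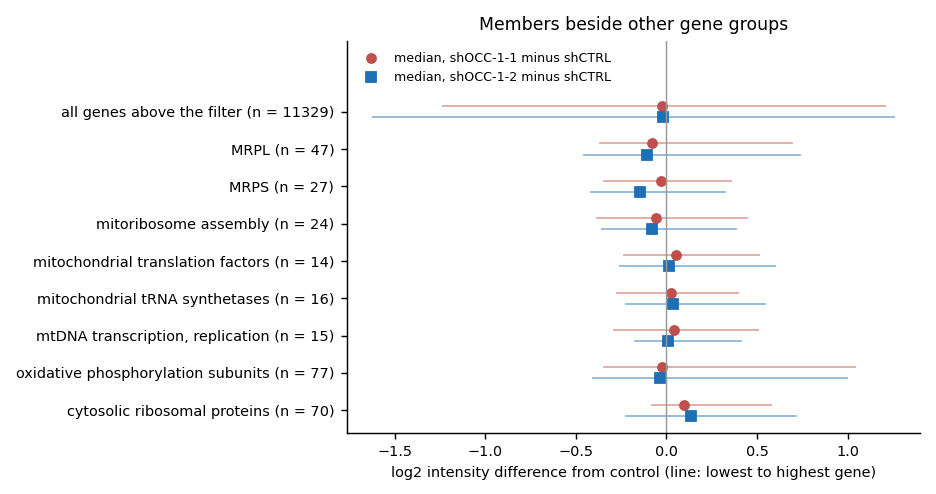
Median log2 intensity difference from control (x axis; circles shOCC-1-1, squares shOCC-1-2) of the MRPL and MRPS genes, of related gene lists and of all genes above the filter, with lines from the lowest to the highest gene. Both MRPL medians and both MRPS medians are below 0. So are those of all genes, at -0.03 and -0.02, and of the oxidative phosphorylation subunits, while those of the cytosolic ribosomal proteins are above it at 0.10 and 0.13.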

How the data were processed

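Expression arrays of 3 Caco-2 lines were used. The authors deposited an intensity, not on a log scale, for each probe set of each array. RMA is named in the submitters' processing notes without settings; background removal and scaling are not given in the sources used here. Values were converted to log2 with no further normalization. Gene symbols came from the platform annotation, and 0 of 44961 symbols changed through RefSeq gene identifiers. Array controls were left out, as were the 1832 probe sets with several symbols. Differences of at least 1.5-fold on both knockdown arrays were counted. limma 3.58.1 in R 4.3.3 (lmFit, eBayes, two-sided, Benjamini-Hochberg over all genes above the filter, 0.05) had 1 residual degree of freedom and 6.96 in total; it was tested on simulated data. Genes were named by rule: those called, the 5 highest and lowest of MRPL and of MRPS, the 3 brightest and dimmest, the 3 most different between hairpins, the 4 most different between probe sets, the stalk and S18 genes, mitoribosomal genes with other names, and the 2 highest and lowest of each related list. Members and lists were chosen with earlier results of these data known. Promoters were searched with Python 3.11.15, and the NRF1 and YY1 motifs were shortened by 1 base after a first search.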

Additional observations from a re-analysis of the deposited data

How the results depend on the processing

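Settings tried were the mean of all probe sets of a gene, no intensity filter, a filter at the upper quartile, normexp background correction, quantile and cyclic loess normalization, thresholds of 1.3-fold and 2-fold and leaving out each knockdown array. MRPL33 was the 1 member called by size in all of them except at 2-fold and with averaged probe sets, where 0 were called. By limma 9 members passed (2 higher, 7 lower), against 15 without the filter (4 and 11), 22 after quantile normalization (3 and 19) and 14 after cyclic loess (3 and 11). The share of all genes that fell moved too, from 3.06% to 3.93%, 6.97% and 4.16% under these settings, and the share that rose from 9.63% to 8.25%, 10.1% and 11.97%. With the filter at the upper quartile 13 members passed (3 and 10), beside 15.1% of all genes that rose and 6.13% that fell. With averaged probe sets 4 were higher and 5 lower (6.96% and 3.33% of all genes), and 5 of the original 9 still passed; under the other settings all 9 did. Each probe set on its own, added after seeing the data, gave 26 calls (14 and 12), and 2 by size. The MRPL median of the mean difference was -0.08, moving to -0.13 with quantile normalization and -0.11 with cyclic loess, and from -0.106 to -0.0787 when 1 knockdown array was left out. The MRPS median was -0.09, from -0.15 to -0.03 with 1 knockdown array left out, and 0.0075 with averaged probe sets. The causes were not tested. No paired analysis was possible because the control has 1 array. limma was not run with 1 array against 1.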

Other observations

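Of the 67 members with a known start, 23 had a gene on the other strand that starts within 1000 bases upstream of them, and 15 of these neighbours were above the intensity filter. The neighbours had median log2 differences from control of 0.01 with shOCC-1-1 and 0.00 with shOCC-1-2. MITD1, which starts beside MRPL30, binds ESCRT-III proteins and acts in the last step of cell division. It was the only neighbour of these 15 that passed limma, and it rose. Over all genes 9.63% rose and 3.06% fell. MITD1 had 483 in the control, 644 and 636 (limma adjusted p = 0.017), while MRPL30 had 1795, 1884 and 1822. MRPL46 and MRPS11 are neighbours of each other in this way, with log2 differences of -0.01 and -0.04 for MRPL46 and 0.21 and 0.13 for MRPS11. MRPS12 starts beside SARS2, the mitochondrial seryl-tRNA synthetase, and lay at -0.25 and -0.22 beside -0.15 and -0.20 for SARS2. MRPL49 starts beside FAU, which encodes a cytosolic ribosomal protein, and lay at -0.21 and -0.24 beside -0.03 and -0.02 for FAU.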
